A study of Mus musculus with 6 samples.

Results

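The genes described here supply cysteine and turn it into glutathione: the cystine transporter Slc7a11, the transsulfuration enzymes Cbs and Cth, the methionine-cycle enzymes Mat2a and Ahcy, the glutathione synthesis genes Gclc, Gclm and Gss, the glutathione reductase Gsr, and Ggt5, which cleaves gamma-glutamyl bonds. They were taken by symbol, and all 10 are among the 22192 genes of the deposited count table. Polyadenylated RNA was sequenced from RAW 264.7 cells, an established mouse macrophage-like line that the labels give as BALB/c. Cells of 3 libraries were kept for 24 h in medium with 200 µg/mL of ASPS-A1, a fraction of the acidic polysaccharides of the leaves of Acanthopanax senticosus. Titles number these libraries ASPS-A1, ASPS-A2 and ASPS-A3, while the treatment label of each is ASPS-A1, and they were taken as 3 libraries of 1 treatment on that label. Another 3 libraries carry the label control, with no vehicle named. The labels do not say whether libraries of a group came from separate cultures, so p-values measure the spread between these libraries, which may be technical. Library totals were 19989318 to 22179544 counts with ASPS-A1 and 23113454 to 26137127 counts in control (exact permutation p = 0.1, two-sided, n = 3 per group, the smallest p that this design can give). All 8 macrophage markers examined were detected (summed level 2964 to 3121 CPM with ASPS-A1 and 2012 to 2040 CPM in control, where CPM are counts scaled to the library size with TMM factors). Each macrophage marker but Csf1r was higher with ASPS-A1 (Csf1r log2 fold change −0.095, adjusted p = 0.0749, edgeR). The T cell, fibroblast, epithelial and neutrophil marker sums each stayed at or below 0.924 CPM in every library. The 4 B cell markers summed to 31.8 to 38.3 CPM with ASPS-A1 and 30.1 to 32.5 CPM in control, nearly all of it Cd79b (log2 fold change 0.16, adjusted p = 0.0792, edgeR). The 4 endothelial markers summed to 12.6 to 13.9 CPM with ASPS-A1 and 6.85 to 8.15 CPM in control, nearly all of it Pecam1, which was higher (log2 fold change 0.80, adjusted p = 3.02e-07, edgeR). Whether the higher macrophage and endothelial marker sums had a part in the differences below was not tested.

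Cysteine enters a macrophage mainly as cystine, its oxidised form, through the antiporter that Slc7a11 forms with the heavy chain Slc3a2, or is made from methionine. In that second route Mat2a makes S-adenosylmethionine, Ahcy releases homocysteine, Cbs joins homocysteine to serine as cystathionine, and Cth splits cystathionine into cysteine. Glutamate-cysteine ligase, made of the catalytic subunit Gclc and the modifier subunit Gclm, performs the rate-limiting step of glutathione synthesis, Gss adds glycine, and Gsr returns oxidised glutathione to its reduced form.

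The members were selected on their measured differences in this same contrast (their counts with ASPS-A1 against control), so their values are a description and carry no p-value. In bulk libraries, fewer cells expressing a gene and less RNA per cell cannot be told apart. Cth and Slc7a11 were well above control with ASPS-A1, Gclc and Mat2a were below control, and Gclm and Gss lay slightly above it. Ahcy was also above control, at a low and uncertain level. Gsr lay slightly above control with TMM factors, but its direction rests on the scaling. Of the 10 members, 8 were abundant enough to test, and each of these passed the abundance filter in the libraries of both groups. At an adjusted p under 0.05 (edgeR quasi-likelihood test, Benjamini-Hochberg adjustment over all genes tested), 6 were higher and 2 lower, in a comparison where 65.3% of the 11686 genes tested passed (32.4% higher and 33.0% lower). For each of these 8 genes the ranges of both groups were separate, 6 with ASPS-A1 above and 2 with it below, as they were for 68.5% of all genes tested (33.7% above and 34.8% below). The median log2 fold change was 0.35 over the 8 members and −0.021 over all genes tested.

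**Figure D1:**
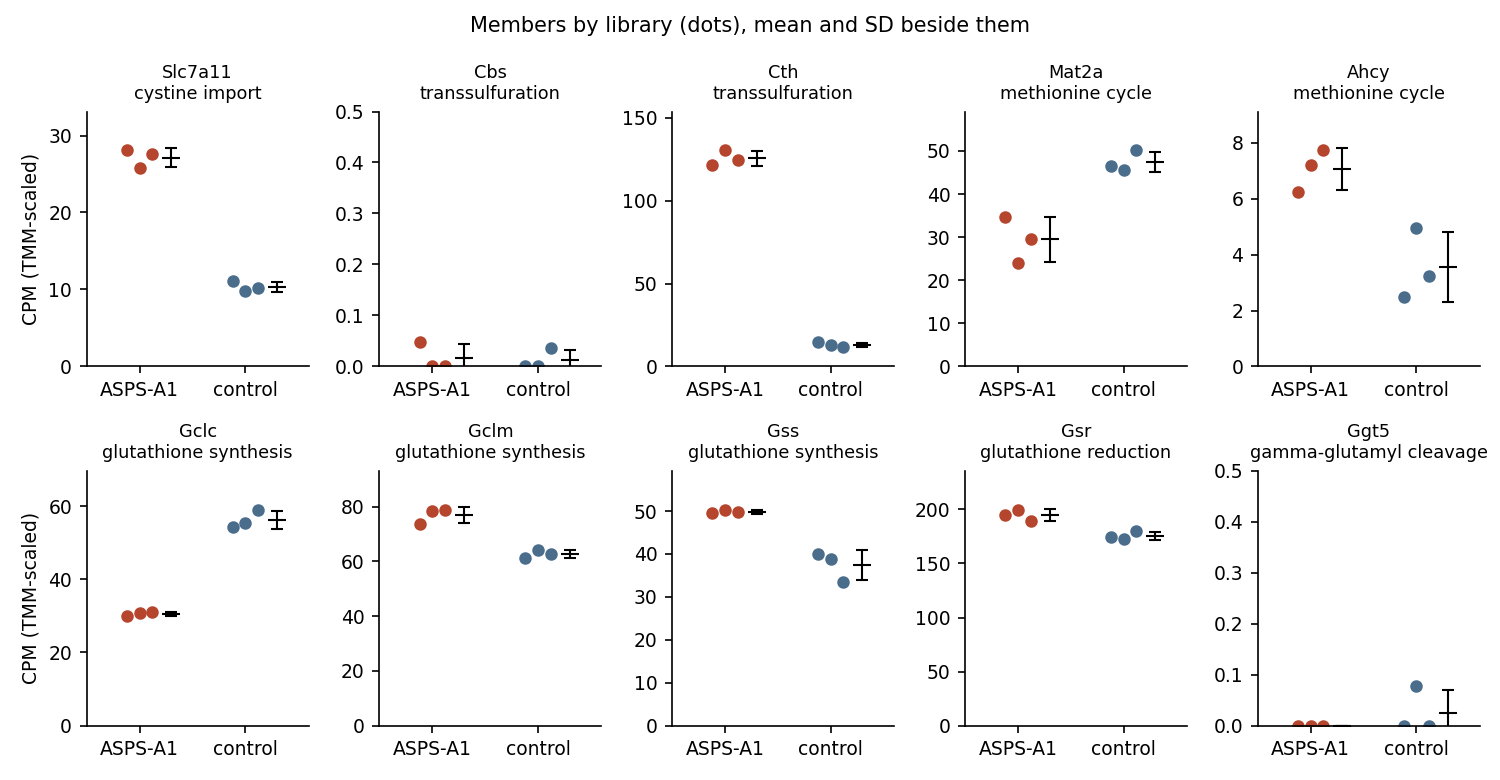
Level in CPM (TMM-scaled, linear axes from 0) of each member in the 3 ASPS-A1 libraries (red) and the 3 control libraries (blue), with the group mean and SD as a black bar beside the dots. Cth lies between 122 and 130 CPM with ASPS-A1 and between 11.8 and 14.5 CPM in control, Gclc shows the opposite order, and Cbs and Ggt5 lie at or near 0 in all libraries.

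Slc7a11, the light chain that carries cystine inwards in exchange for glutamate, had 588, 474 and 521 counts in the ASPS-A1 libraries, against 275, 253 and 287 counts in the control libraries. After scaling these were 28.1, 25.8 and 27.6 CPM with ASPS-A1 and 11.1, 9.80 and 10.2 CPM in control, so every treated library held more than 2-fold the level of every control library. The fitted difference was 2.62-fold (log2 fold change 1.39 ± 0.099 SE). Its longest coding transcript, of 9223 nt, belongs to the tenth of tested genes with the longest transcripts, whose median log2 fold change was −0.27. With per-library offsets fitted to transcript length and GC content, the Slc7a11 log2 fold change was 1.56.

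The Slc7a11 promoter is shown with its matches to a motif of regulators described further on. It spans 250 bases before to 50 bases after the gene start at chr3:50443564-50443863 (minus strand of GRCm38.p6, RefSeq), and capitals mark matches to TGATGNAA, the core of the C/EBP-ATF response element through which ATF4 and its partners act, searched on both strands. The mouse Slc7a11 promoter is known as background to respond to ATF4, and whether ATF4 had a part in the difference described here was not tested.
Slc7a11: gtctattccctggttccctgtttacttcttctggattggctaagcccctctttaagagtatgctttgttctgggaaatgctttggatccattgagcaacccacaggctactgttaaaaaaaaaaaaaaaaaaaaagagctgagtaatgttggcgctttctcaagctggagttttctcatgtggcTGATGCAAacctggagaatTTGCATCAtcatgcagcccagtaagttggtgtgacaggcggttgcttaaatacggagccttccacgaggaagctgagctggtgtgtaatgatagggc
The promoter holds 2 matches, on opposite strands, at −66 to −59 and at −47 to −40 from the gene start. Of 32851 mouse promoters of the same length, 3.97% hold at least 1 such match. RefSeq promoters were matched for 6 of the 10 members (Slc7a11, Cbs, Mat2a, Ahcy, Gclm and Gss), and among these TGATGNAA was found for Slc7a11.

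Cth, the lyase of the final transsulfuration step, showed the widest difference of the members. It had 2549, 2399 and 2354 counts in the treated libraries, against 360, 332 and 333 counts in the control libraries, or 122, 130 and 125 CPM with ASPS-A1 and 14.5, 12.9 and 11.8 CPM in control. The lowest treated library was thus far above the highest control library. Cth was 9.63-fold higher with ASPS-A1 (log2 fold change 3.27 ± 0.072 SE) and stood 23rd from the highest log2 fold change among the 11686 genes tested. With the length and GC offsets its log2 fold change was 2.97.

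Cbs, the enzyme that makes the substrate of Cth, was close to undetected. It had 1 count in ASPS-A1 replicate 1 and 0 in the other 2 treated libraries, and 1 count in control replicate 3 and 0 in the other 2 control libraries. Both groups were under a floor of 3 counts over the group, so no fold is given, and the depth of these libraries does not show whether Cbs differed. The high level of Cth therefore stood beside near-zero counts for the enzyme before it in the pathway.

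The methionine-cycle members differed in opposite directions. Mat2a, which encodes the catalytic subunit of the S-adenosylmethionine synthetase of non-hepatic cells, had 34.6, 24.1 and 29.7 CPM with ASPS-A1, against 46.4, 45.6 and 50.1 CPM in control. It was 1.61-fold lower (log2 fold change −0.68 ± 0.089 SE), with its widest spread among the treated libraries. Of its exon length, 11.3% is shared with neighbouring genes, chiefly Particl, and whether counting used strand is not given in the sources used here. Of the 50-base windows of its longest coding transcript, 11.4% also occur in transcripts of 3 other annotated genes, most in Gm9523 (6.53%). None of these genes has a row in the deposited table, and how reads that fit several genes were treated is not given.

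Ahcy, which hydrolyses S-adenosylhomocysteine to homocysteine, had 131, 133 and 146 counts in the treated libraries, against 62, 128 and 91 counts in the control libraries. Its levels were 6.25, 7.23 and 7.73 CPM with ASPS-A1 and 2.50, 4.96 and 3.23 CPM in control (log2 fold change 0.99 ± 0.19 SE). The control libraries spread widely, and the highest of them lay close to the lowest treated library. Of the 50-base windows of its longest coding transcript, 77.0% also occur in transcripts of 4 other annotated genes, with Gm4737 holding 74.1% of them. None of the 4 has a row in the deposited table, and how reads that fit several genes were treated is not given, so the Ahcy level is uncertain.

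Among the glutathione synthesis genes, Gclc alone was lower with ASPS-A1. Gclc had 30.0, 30.8 and 31.1 CPM in the treated libraries, against 54.3, 55.4 and 59.0 CPM in the control libraries. The treated libraries lay close together and far under all controls, a 1.84-fold lower level (log2 fold change −0.88 ± 0.070 SE). No 50-base window of the Gclc transcript was found in another gene's transcripts.

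Gclm, the modifier subunit of the same ligase, had 73.6, 78.3 and 78.9 CPM with ASPS-A1 and 61.3, 64.1 and 62.9 CPM in control. Its log2 fold change was 0.29 ± 0.059 SE, or 0.45 with the length and GC offsets. Scaling by library totals alone shifts all genes by about −0.20 on the log2 scale, and Gclm then had 0.097 and was not called. Gss, the glutathione synthetase, had 49.5, 50.3 and 49.7 CPM with ASPS-A1 and 40.1, 38.8 and 33.4 CPM in control (log2 fold change 0.41 ± 0.072 SE). The Gss log2 fold change was 0.24 with the length and GC offsets and 0.22 with library totals alone, called in both. Gss shares 15.4% of its exon length with neighbours, chiefly Acss2. Acss2 had 3062 counts over the ASPS-A1 libraries and 2244 over the control libraries, and whether its reads entered the Gss counts was not tested.

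Gclc and Gclm encode partners of 1 enzyme, and their ratio differed between the groups. Expressed as CPM per kb of the longest coding transcript, Gclc was 0.666, 0.642 and 0.644 times Gclm with ASPS-A1, against 1.45, 1.41 and 1.53 times in control. The catalytic subunit's transcript was the less abundant of the pair in each treated library and the more abundant in each control library. A ratio within a library does not depend on the size factor of that library, but the order of the pair rests on the transcript lengths used. In CPM, without division by length, Gclc lay below Gclm in every library (control means 56.2 and 62.7 CPM).

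The Gclm promoter is shown beside that of Slc7a11 because Gclm is a textbook NRF2 target. It lies at chr3:122245307-122245606 (plus strand of GRCm38.p6, RefSeq), and capitals mark the match to TGACNNNGC, the core of the antioxidant response element bound by NRF2 with small MAF proteins, searched on both strands. No TGATGNAA match was found in this window.
Gclm: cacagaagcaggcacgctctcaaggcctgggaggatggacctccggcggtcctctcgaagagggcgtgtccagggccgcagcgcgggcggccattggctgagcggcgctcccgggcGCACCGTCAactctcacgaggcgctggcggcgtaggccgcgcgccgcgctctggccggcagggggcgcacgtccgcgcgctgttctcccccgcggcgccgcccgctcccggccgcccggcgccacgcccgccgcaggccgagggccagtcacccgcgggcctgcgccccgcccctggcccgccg
The match is on the minus strand at −134 to −126 from the gene start, and 12.4% of the 32851 promoters hold at least 1. Among the 6 members with a promoter, TGACNNNGC was found for Gclm.

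Gsr, the most abundant member by CPM, differed least. It had 195, 200 and 189 CPM with ASPS-A1 and 174, 173 and 180 CPM in control, a log2 fold change of 0.15 ± 0.047 SE that turned to −0.047 with scaling by library totals alone and was 0.080 with the length and GC offsets, uncalled in both. Its direction therefore rests on the scaling. Ggt5, which cleaves leukotriene C4 and glutathione conjugates, had 0 counts in all 3 treated libraries and 0, 2 and 0 counts in control, under the same floor as Cbs.

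**Figure D2:**
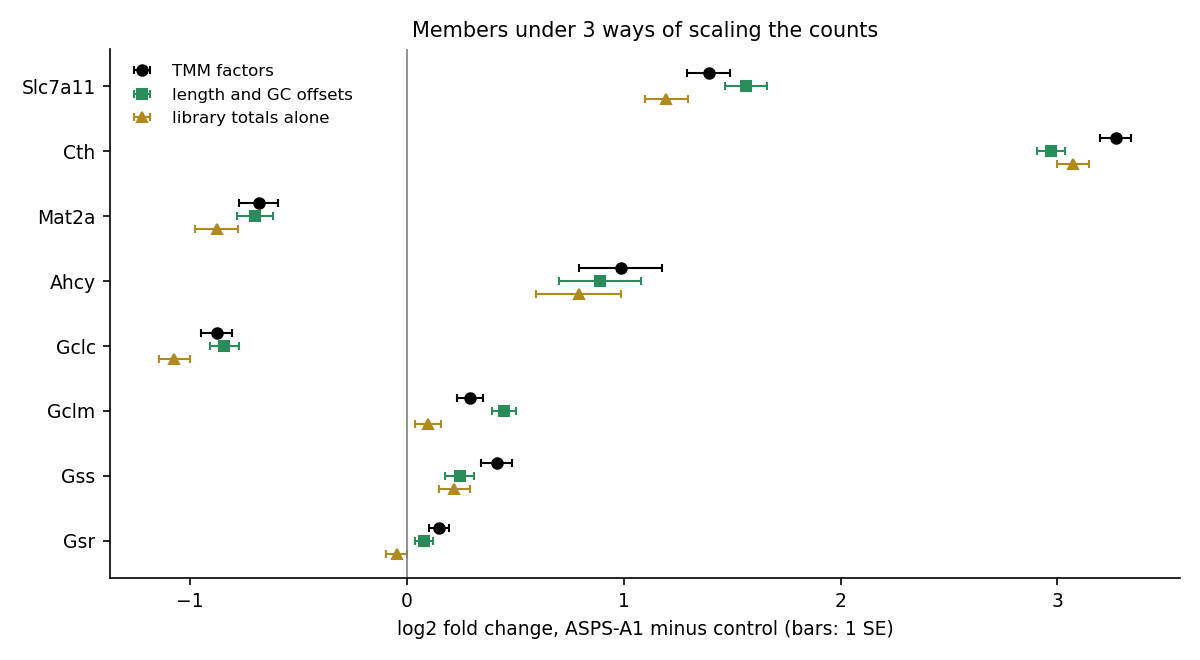
Log2 fold change (ASPS-A1 minus control, points) with 1 SE (bars) of the 8 tested members, under TMM factors (black circles), offsets for transcript length and GC content (green squares) and library totals alone (yellow triangles). Slc7a11, Cth, Mat2a, Ahcy and Gclc keep their side of 0 by several SE in all 3 fits, while Gsr lies at 0.15, 0.080 and −0.047.

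Set against each other, the summed level of cystine import and transsulfuration differed between the groups, through Cth above all, while that of glutathione synthesis overlapped. Taken singly, Slc7a11 was 2.62-fold higher and Gclc 1.84-fold lower. The summed level of Slc7a11 and Cth was 70.1, 74.6 and 71.7 CPM per kb with ASPS-A1, against 9.20, 8.14 and 7.61 CPM per kb in control, with Cth supplying most of it in every library. The summed level of Gclc, Gclm and Gss was 47.1, 48.6 and 48.5 CPM per kb with ASPS-A1, against 47.3, 47.4 and 45.5 CPM per kb in control, and these ranges overlap, with the lower Gclc set against higher Gclm and Gss in the treated libraries. The first sum was 1.49, 1.53 and 1.48 times the second in the ASPS-A1 libraries, against 0.195, 0.172 and 0.167 times in the control libraries. Which sum is the larger within a library rests on the transcript lengths used. Per kb of transcript the order also differed: Gsr (72.8 ± 2.03) and Cth (69.2 ± 2.44) were the most abundant members with ASPS-A1, within 2 SD of each other, followed by Gss (25.4 ± 0.227), Gclm (13.8 ± 0.520), Gclc (8.95 ± 0.160) and Mat2a (8.69 ± 1.56), of which Gclc and Mat2a lay within 1 SD. Slc7a11 (2.94 ± 0.132 CPM per kb) and Ahcy (2.78 ± 0.296 CPM per kb) were lowest with ASPS-A1, also within 1 SD of each other. In control Gsr (65.7 ± 1.37 CPM per kb) led alone, followed by Gss (19.1 ± 1.80), Gclc (16.4 ± 0.724), Mat2a (14.0 ± 0.706), Gclm (11.2 ± 0.248), Cth (7.20 ± 0.755), Ahcy (1.40 ± 0.496) and Slc7a11 (1.12 ± 0.072), and the last pair lay within 1 SD (n = 3 for each SD). Gss and Gclc changed places in control replicate 3 (17.0 and 17.2 CPM per kb), so their order is not settled.

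**Figure D3:**
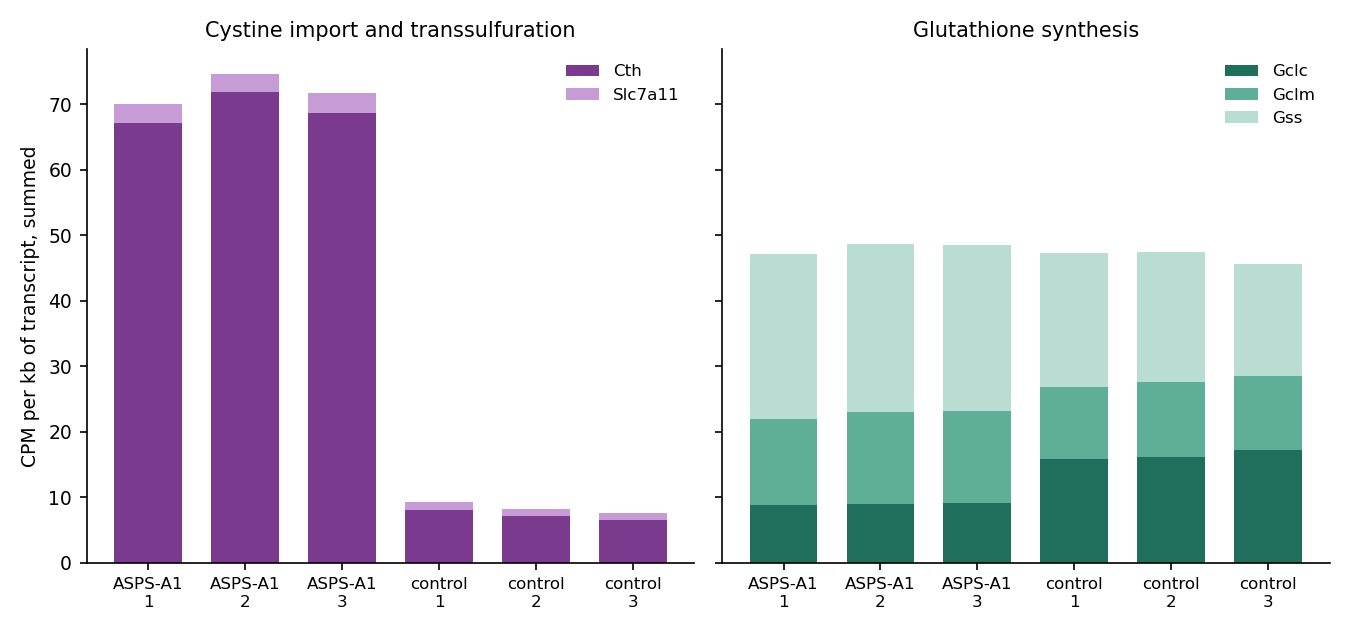
Level per library in CPM per kb of the longest coding transcript (bars from 0), stacked for Cth and Slc7a11 (left) and for Gclc, Gclm and Gss (right), with the 3 ASPS-A1 libraries before the 3 control libraries. The left sums are 70.1 to 74.6 with ASPS-A1 and 7.61 to 9.20 in control, while the right sums span 47.1 to 48.6 and 45.5 to 47.4 with a smaller Gclc part in the treated libraries.

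The other genes of cysteine, methionine, glutathione and redox metabolism were counted in 8 lists holding 128 genes, none of them a member. Of the 105 that were tested, 53 rose, 28 fell and 24 did not pass, where the background is 65.3% of all genes tested, with a median log2 fold change of 0.24 beside −0.021 over all genes tested. The split was 39 higher and 38 lower when library totals alone set the scale, and 45 higher and 37 lower with the length and GC offsets. With TMM factors, 77.1% of the tested genes over all lists passed. By list, the share was 73.3% for methionine cycle and salvage, 100% for transport and 64.3% for cysteine breakdown and sulfide. It was 80% for glutathione use, 57.1% for glutathione breakdown and transport, 84.6% for thioredoxin, 81.8% for NADPH supply and 91.7% for regulators. Over tested genes of known length, median log2 fold changes fell as transcripts grew longer. They ran from 0.48 in the tenth with the shortest transcripts to −0.27 in the tenth with the longest.

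Of 6 tested cystine and cysteine transport genes, 4 rose and 2 fell (median log2 fold change 0.90). The list also holds the amino acid carriers Slc7a5 (log2 fold change 1.17, adjusted p = 2.78e-22) and Slc1a5 (0.64, adjusted p = 1.04e-15). Both rose, so the median does not describe cystine carriers alone. Slc3a2, the heavy chain that holds Slc7a11 in the plasma membrane, rose to 434 ± 9.35 CPM with ASPS-A1, against 156 ± 5.33 CPM in control (SD, n = 3 each, log2 fold change 1.47 ± 0.047 SE, adjusted p = 1.27e-29). Slc1a4, a carrier of small neutral amino acids including cysteine, rose to 10.7 ± 0.636 CPM with ASPS-A1, against 3.77 ± 0.789 CPM in control (log2 fold change 1.51, adjusted p = 1.89e-11). Ctns, the lysosomal cystine exporter, fell (−0.48, adjusted p = 0.000227). Mfsd12, needed for cysteine entry into lysosomes, had −0.13 (adjusted p = 0.0417), a call that ended in 9 of 16 alternatives, in one of which the sign also turned (0.072 with the length and GC offsets, adjusted p = 0.211), and 29.8% of its exon length is shared with other genes. The plasma-membrane cystine carriers Slc3a1 and Slc7a9 had at most 3 counts over a group.

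Of 15 tested genes of the methionine cycle and salvage, 7 rose, 4 fell and 4 did not pass (median log2 fold change 0.091). Srm, the spermidine synthase, rose to 184 ± 10.6 CPM with ASPS-A1, against 95.9 ± 3.05 CPM in control (log2 fold change 0.94, adjusted p = 1.29e-20), and Mtap, which starts the salvage of methionine from methylthioadenosine, rose by 0.69 (adjusted p = 2.00e-14). Amd1, whose enzyme feeds decarboxylated S-adenosylmethionine to polyamine synthesis, fell by 0.54 (adjusted p = 9.15e-11), and the Ahcy-like gene Ahcyl2 fell by 0.44 (adjusted p = 2.05e-08). With the length and GC offsets Srm had 0.64, Mtap 0.61, Amd1 −0.58 and Ahcyl2 −0.25, and each stayed called.

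Genes that break down cysteine or handle hydrogen sulfide, a product of Cth, moved both ways: of 14 tested, 4 rose, 5 fell and 5 did not pass (median log2 fold change 0.085). The share called, 64.3%, was near the 65.3% of all genes tested. Sqor, the mitochondrial enzyme that oxidises sulfide, rose to 84.1 ± 3.88 CPM with ASPS-A1, against 33.8 ± 2.48 CPM in control (log2 fold change 1.32, adjusted p = 4.18e-22), and the transaminase Got1 rose by 0.51 (adjusted p = 7.66e-13). Selenbp1, which encodes a methanethiol oxidase, fell to 39.6 ± 3.75 CPM with ASPS-A1, against 102 ± 3.82 CPM in control (log2 fold change −1.37, adjusted p = 5.65e-23), and the thiol dioxygenase Ado fell by 0.48 (adjusted p = 4.30e-06).

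Of 20 tested genes that use glutathione, 12 rose, 4 fell and 4 did not pass (median log2 fold change 0.22). Esd, which hydrolyses S-formylglutathione, rose to 886 ± 19.2 CPM with ASPS-A1, against 352 ± 9.57 CPM in control (log2 fold change 1.33, adjusted p = 6.93e-28), and the glutaredoxin Glrx rose by 0.86 (adjusted p = 5.31e-19). The glutathione transferases Gstm1 (−0.81, adjusted p = 5.31e-07) and Mgst3 (−0.78, adjusted p = 6.49e-09) fell. With the length and GC offsets Esd had 1.08, Glrx 0.45, Gstm1 −1.18 and Mgst3 −1.23, and each stayed called. Gstm1 belongs to a family of close paralogs, and the treatment of reads shared between them is not given. Of 14 tested genes for glutathione breakdown and transport, 5 rose, 3 fell and 6 did not pass (median 0.32). The mitochondrial glutathione carrier Slc25a39 rose by 0.45 (adjusted p = 1.16e-11), while its paralog Slc25a40 fell to 14.9 ± 1.55 CPM with ASPS-A1, against 33.2 ± 2.57 CPM in control (log2 fold change −1.16, adjusted p = 3.11e-15). Ggt7 rose by 0.52 (adjusted p = 0.000107). The export pump Abcc4 fell (−0.32, adjusted p = 0.000148), a call lost once length and GC offsets were fitted (−0.10, adjusted p = 0.200). Ggt1 and Ggt6, relatives of Ggt5, had at most 3 counts over a group.

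The thioredoxin system, which shares NADPH with Gsr, had 13 tested genes, of which 9 rose, 2 fell and 2 did not pass (median log2 fold change 0.30). Prdx5, a peroxiredoxin with 19.1% of its exon length shared, rose to 414 ± 21.9 CPM with ASPS-A1, against 204 ± 3.82 CPM in control (log2 fold change 1.02, adjusted p = 2.89e-23), and the mitochondrial thioredoxin Txn2 rose by 0.82 (adjusted p = 4.54e-19). Txnip, which binds and inhibits thioredoxin and shares 19.4% of its exon length, fell by 0.76 (adjusted p = 1.64e-18). Among 11 tested NADPH suppliers, 5 rose, 4 fell and 2 did not pass (median 0.048). Mthfd2, of mitochondrial folate metabolism, rose by 1.27 (adjusted p = 1.92e-25) and G6pdx, the entry enzyme of the pentose phosphate pathway, rose by 0.76 (adjusted p = 8.85e-19, with 13.6% of its exon length shared), while the transhydrogenase Nnt (−0.67, adjusted p = 5.28e-13) and the cytosolic isocitrate dehydrogenase Idh1 (−0.43, adjusted p = 4.92e-10) fell.

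**Figure D4:**
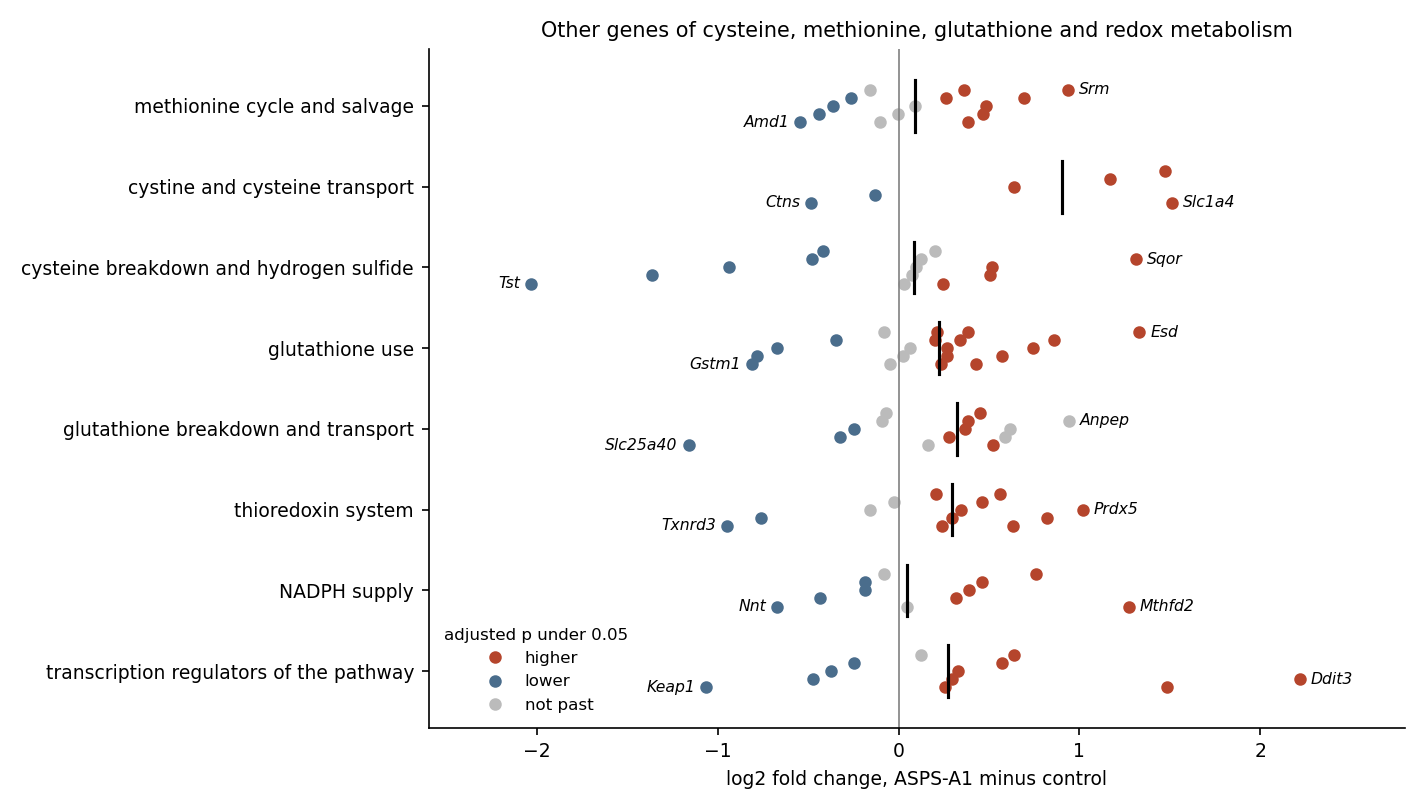
Log2 fold change (ASPS-A1 minus control) of each tested gene in 8 lists of related metabolism, coloured by whether it was higher, lower or not past an adjusted p of 0.05, with a black line at the list's median and the lowest and highest gene named. The transport list has the highest median (0.90), and each list holds genes on both sides of 0.

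Transcription regulators known to act on the members also differed, in both directions. Of 12 tested, 7 rose, 4 fell and 1 did not pass (median log2 fold change 0.28). Atf4, which drives amino acid supply genes including Cth and Slc7a11, rose to 558 ± 7.52 CPM with ASPS-A1, against 199 ± 26.1 CPM in control (SD, n = 3 each, log2 fold change 1.49 ± 0.073 SE, adjusted p = 4.75e-11). Ddit3, its target and partner CHOP, rose by 2.22 (adjusted p = 6.67e-28). Nfe2l1 (0.64, adjusted p = 5.66e-16) and the small MAF gene Mafk (0.57, adjusted p = 6.52e-09) also rose. Atf3 (0.33, adjusted p = 0.000149), Cebpb (0.26, adjusted p = 0.000973, with 20.7% of its exon length shared) and Maff (0.29, adjusted p = 0.00110) passed the threshold, and each lost the call with library totals alone and with the length and GC offsets. Cebpg had 0.13 (adjusted p = 0.0803), with −0.069 under library totals alone (adjusted p = 0.346) and 0.24 under the offsets (adjusted p = 0.000338).

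On the NRF2 side, Nfe2l2, which encodes NRF2, a known activator of Gclc, Gclm and Slc7a11, fell to 57.0 ± 3.86 CPM with ASPS-A1, against 79.2 ± 1.91 CPM in control (log2 fold change −0.47 ± 0.061 SE, adjusted p = 3.89e-09). Keap1, whose protein marks NRF2 for degradation, fell to 18.2 ± 1.02 CPM with ASPS-A1, against 37.9 ± 1.30 CPM in control (log2 fold change −1.06, adjusted p = 1.85e-15). The repressor Bach1 fell (−0.25, adjusted p = 0.00248), a call lost with the length and GC offsets (−0.054, adjusted p = 0.516), and Mafg fell by 0.37 (adjusted p = 4.57e-07). Transcript levels do not measure the activity of these proteins, and whether any of these regulators had a part in the differences of the members was not tested.

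The promoters of the wider lists were searched for the same letters. Of 110 listed genes with a promoter, 5 held TGATGNAA: 4 of 45 that rose (Slc1a4, Got1, Sqor and Atf3), 0 of 25 that fell, 1 of 19 not past the threshold (Chac1) and 0 of 21 not tested. That is 4.55% of the listed genes, near the 3.97% of all promoters, and 26 of the 110 genes had more than 1 promoter searched. The windows round these matches and round both Slc7a11 matches are shown to let their surroundings be compared, each turned so that the match, in capitals, reads 5′ to 3′ (GRCm38.p6, RefSeq).
Slc7a11, chr3:50443661-50443690, minus strand: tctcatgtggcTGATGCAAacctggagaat
Slc7a11, chr3:50443642-50443671, plus strand: gggctgcatgaTGATGCAAattctccaggt
Slc1a4, chr11:20332699-20332728, plus strand: caggctggagaTGATGCAAcgcaggaggca
Got1, chr19:43524689-43524718, plus strand: ggaggcttgtaTGATGCAAccaatgcaatg
Sqor, chr2:122771559-122771588, minus strand: gcacagagaaaTGATGAAAaggaaaaactg
Atf3, chr1:191183425-191183454, plus strand: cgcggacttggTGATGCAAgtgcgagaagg
Chac1, chr2:119351038-119351067, minus strand: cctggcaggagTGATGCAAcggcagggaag
With the exception of Sqor, each window carries C at the open position of the motif. TGACNNNGC was found for 24 of the 110 listed genes (21.8%, against 12.4% of all promoters): 7 of the 45 that rose, 5 of the 25 that fell (Abcc4, Slc25a40, Me1, Nfe2l2 and Mafg), 7 of the 19 not past the threshold and 5 of the 21 not tested. The share per gene and the share per promoter are not the same measure where a gene has several promoters. Chac1, which degrades glutathione and is itself an ATF4 target, had 2.00 ± 0.706 CPM with ASPS-A1 and 1.30 ± 0.344 CPM in control (log2 fold change 0.61, adjusted p = 0.104, edgeR).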

How the data were processed

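The submitters' processing notes list DESeq 1.38.3, HTSeq 0.9.1, HISAT2 2.1.0 and fastp 0.22.0. The authors deposited a table of raw counts by gene symbol. Not given in the sources used here are the genome build, the annotation, how strand was set and how multi-mapping reads were counted. Libraries were grouped by treatment label (3 ASPS-A1, 3 control). Genes were filtered with filterByExpr (minimum count 10, minimum total 15) and scaled with TMM factors, and the quasi-likelihood test of edgeR 4.0.16 in R 4.3.3 was run on the 11686 genes left (robust, two-sided, Benjamini-Hochberg adjustment, threshold 0.05). The code was tested on simulated data. Each SE was derived from the F statistic as |log2 fold change|/√F. Levels per kb use the longest coding transcript of GENCODE M21, which also gave exon overlap and 50-base windows. Alternatives were other scaling factors, library totals, DESeq2 1.42.0, limma-voom (limma 3.58.1), other filters, the library number as a block, omission of single libraries, glmTreat against 1.5-fold, and per-library lowess offsets (span 0.3) for length and GC content, which were known for 97.5% of genes tested.

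The members, the 8 lists and the tests were chosen with earlier results of these data known. From each list the text names up to 2 risen and 2 fallen genes with the largest change, among called genes that reach 10 CPM in either group's mean and whose groups are separate, and every tested regulator. Genes outside that rule (Slc3a1, Slc7a9, Slc7a5, Slc1a5, Ggt1, Ggt6, Chac1 and Me1) were named after their values were seen. No library was treated as a copy of another, since pairs within a group gave a chi-square of 4.27 to 6.95 per degree of freedom. No deposited column was left out.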

Additional observations from a re-analysis of the deposited data

How the results depend on the processing

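The members counted as higher (6) and lower (2) were 3 and 1 when tested against a 1.5-fold change with glmTreat, the other pathway genes 13 and 5, and all genes 812 and 880; fewer calls follow from that stricter question. The remaining alternatives left these counts within 1.5 times, with 4 to 6 members higher and 2 lower in each. Without 1 library at a time, 6 members were higher and 2 lower, 51 to 54 pathway genes were higher and 25 to 29 lower, and 3511 to 3679 genes were higher and 3597 to 3707 lower. Signs turned for a few genes: Gsr was −0.047 and Cebpg −0.069 with library totals alone, and Mfsd12 was 0.072 with the length and GC offsets. Of 752 single-gene values under alternatives, 704 kept direction and side of the threshold, 44 lost and 1 gained a call, and 3 turned sign. Leaving out 1 library moved Ahcy between 0.79 (without control replicate 1) and 1.29 (without control replicate 2) and Mat2a between −0.82 and −0.56. With library totals alone 2529 genes were higher and 5454 lower.

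Library numbers are shared between the groups, but the labels name no batch. Deviations of same-numbered libraries had correlations across genes of −0.0413, 0.0105 and −0.00263. Those of differently numbered libraries ran from −0.0377 to 0.0439. These values show no pairing by number, but with 3 libraries per group they cannot exclude a shared culture or batch. With the replicate block 6 members were higher and 2 lower, 53 and 27 pathway genes, and 3746 and 3807 genes, and Mfsd12 was not past the threshold (adjusted p = 0.0518). Depth limits Cbs and Ggt5, which cannot be compared at 0 to 2 counts per library.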
